A study of Mus musculus with 6 samples.

Results

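Integrin chains are the alpha and beta subunits of the receptors with which T cells hold on to other cells and to matrix, and the 10 chains described here are Itgae, Itga4, Itga6, Itgal, Itgav, Itgb1, Itgb2, Itgb3, Itgb7 and Itgb8. They were taken as all probe sets of the array whose single gene symbol is one of these 10 names, which gave 27 of the 45101 probe sets, and every one of the 27 is reported. The samples were CD4+YFP+ T cells that a flow cytometer had sorted out of mouse lymph nodes, in 2 groups of 3 arrays each. The Het group came from FoxP3-GFP-hCre x ROSA26R-YFP mice that were Dicer wt/lox, and the KO group from FoxP3-GFP-hCre x ROSA26R-YFP mice that were Dicer lox/lox. Both groups thus carried the GFP-Cre fusion driven by Foxp3, the transcription factor of regulatory T cells, and the YFP reporter in the ROSA26 locus, which stays on in a cell and its progeny once Cre has acted. Cre could therefore remove 1 copy of Dicer in Het cells and both in KO cells, and Dicer is the nuclease that cuts microRNA precursors into mature microRNAs. A YFP+ cell had used Foxp3 at some time, whether or not it still did when sorted. No age is stated in the labels, and the arrays of a group are told apart by the letters A, B and C alone. The labels do not say that the 3 arrays of a group came from separate mice, so p-values measure the spread between these arrays, which may be technical.

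An integrin is a heterodimer of 1 alpha and 1 beta chain, and neither chain reaches the cell surface well without a partner. On T cells, Itgal pairs with Itgb2 to form LFA-1, which binds ICAMs on other cells, and Itga4 pairs with Itgb1 to form VLA-4, which binds VCAM-1 and fibronectin, or with Itgb7 to form the gut-homing receptor that binds MAdCAM-1. Itgae pairs with Itgb7 to form the CD103 receptor for E-cadherin on epithelium, and Itga6 pairs with Itgb1 to bind laminin. Itgav pairs with Itgb1, Itgb3 or Itgb8, and the Itgav-Itgb8 receptor on regulatory T cells is known for releasing active TGF-beta from its latent complex.

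The values are probe set intensities normalized with GCRMA by the authors, on a linear scale, and log2 was taken before any test. They are arbitrary brightness units that depend on each probe's sequence, so a level of 1 probe set is not compared with that of another. By the array maker's naming, probe sets whose names end in _s_at or _x_at can also pick up similar sequences, so their values are less certain. The array medians lay between 58.1 and 61.5, and the log2 values of arrays correlated at 0.989 to 0.993 for arrays of 1 group and at 0.982 to 0.990 for arrays of different groups, across probe sets, which are not independent. Dicer1 read 1203, 1077 and 1059 on Het arrays A, B and C and 1029, 1053 and 1187 on the KO arrays in 1427941_at, and 1218, 1120 and 1345 against 896.7, 975.9 and 709.2 in 1460571_at (adjusted p = 0.145), and whether either lies in the part between the lox sites is not stated in the labels. Foxp3 read 9960, 8945 and 9769 in Het, against 5453, 9417 and 5420 in KO (adjusted p = 0.285). All 6 T cell markers and all 5 regulatory T cell markers were above the array median on every array. The summed T cell markers ran from 118020 to 126706 in Het and from 95847 to 117327 in KO, while the summed regulatory T cell markers ran from 60365 to 67252 and from 70490 to 76249. The members of the latter sum differed in direction, with Ctla4 at 0.76, Il2ra at 0.67 and Tnfrsf18 at 0.20 on the log2 scale, and Foxp3 at -0.55 and Ikzf2 at -0.24. Among markers of other cell types, the 5 measured for platelets and the 6 for endothelium and stroma lay below the array median on every array. The summed markers of B cells, CD8 T cells, NK cells and myeloid cells were highest on the B array of each group, though not every marker was. These sums on Het B and KO B were 2456 and 5029 for 5 B cell markers, 2257 and 4415 for 2 CD8 T cell markers, 608 and 1663 for 4 NK cell markers, and 726 and 1992 for 6 myeloid markers. On the A and C arrays the B cell sums were 1043 and 1079 in Het, against 1886 and 2048 in KO, and the myeloid sums were 423 and 485 against 637 and 962, so that both were higher in KO apart from the B arrays too. Cd22, a B cell marker, and Cd68, a myeloid marker, were higher on every KO array than on any Het array. Their differences were 1.37 and 1.91 on the log2 scale (limma adjusted p = 0.173 and 0.113). All other measured markers of both lists overlapped between the groups. Of the B cell markers, Ms4a1, Cd79b and Cd79a differed by 1.15, 0.42 and 0.23. Of the myeloid markers, Lyz2, Adgre1, Csf1r and Fcgr1 differed by 2.09, 0.22, 0.06 and -0.04. The CD8 and NK sums on the A and C arrays ran from 636 to 909 and from 114 to 133 over both groups. Of the NK cell markers only Klrd1 was above the median, with Ncr1, Klra8 and Klre1 below it on all 6 arrays, as were Blnk of the B cell markers and Cd14 of the myeloid markers. In such bulk samples a change in the share of cells of a type and a change in RNA per cell cannot be told apart, and values without both B arrays are given beside the main results. What part the B cell and myeloid signals had in the differences of the integrin chains was not tested.

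Of the 27 probe sets 25 were bright enough to test, meaning that their log2 value exceeded 4 on 3 or more of the 6 arrays, and 5 of the 25 lay below the median of their array on every array. No probe set of an integrin chain passed an adjusted p of 0.05 in limma, where 1.78% of all 29507 tested probe sets passed. The lowest adjusted p was 0.0555, for Itgb2. At an unadjusted p under 0.05 there were 9 of 25, or 36%, against 19.1% of all tested probe sets, 6 higher and 3 lower in KO. KO and Het arrays did not overlap in 10 of the 25, or 40%, against 26.2% of all tested, with 7 higher and 3 lower in KO. The differences were above 0 for 19 and below 0 for 6 probe sets, and their median was 0.20 on the log2 scale, against -0.03 over all probe sets tested. The median size of a difference, whatever its sign, was 0.30 against 0.18. Probe sets of 1 gene share a transcript and are not independent of each other, and 7 of the genes had more than 1 tested probe set. With 1 probe set for each gene, the brightest one, 0 of 10 chains passed in either direction, where 1.37% of 13280 genes were higher and 0.956% lower, and an unadjusted p under 0.05 was reached by 3 chains that were higher (Itgav, Itgb2 and Itgb3) and 1 that was lower (Itgb8), where 10.7% of all genes were higher and 11.6% lower at that level, so that 1 of 10 lower is near the background.

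**Figure D1:**
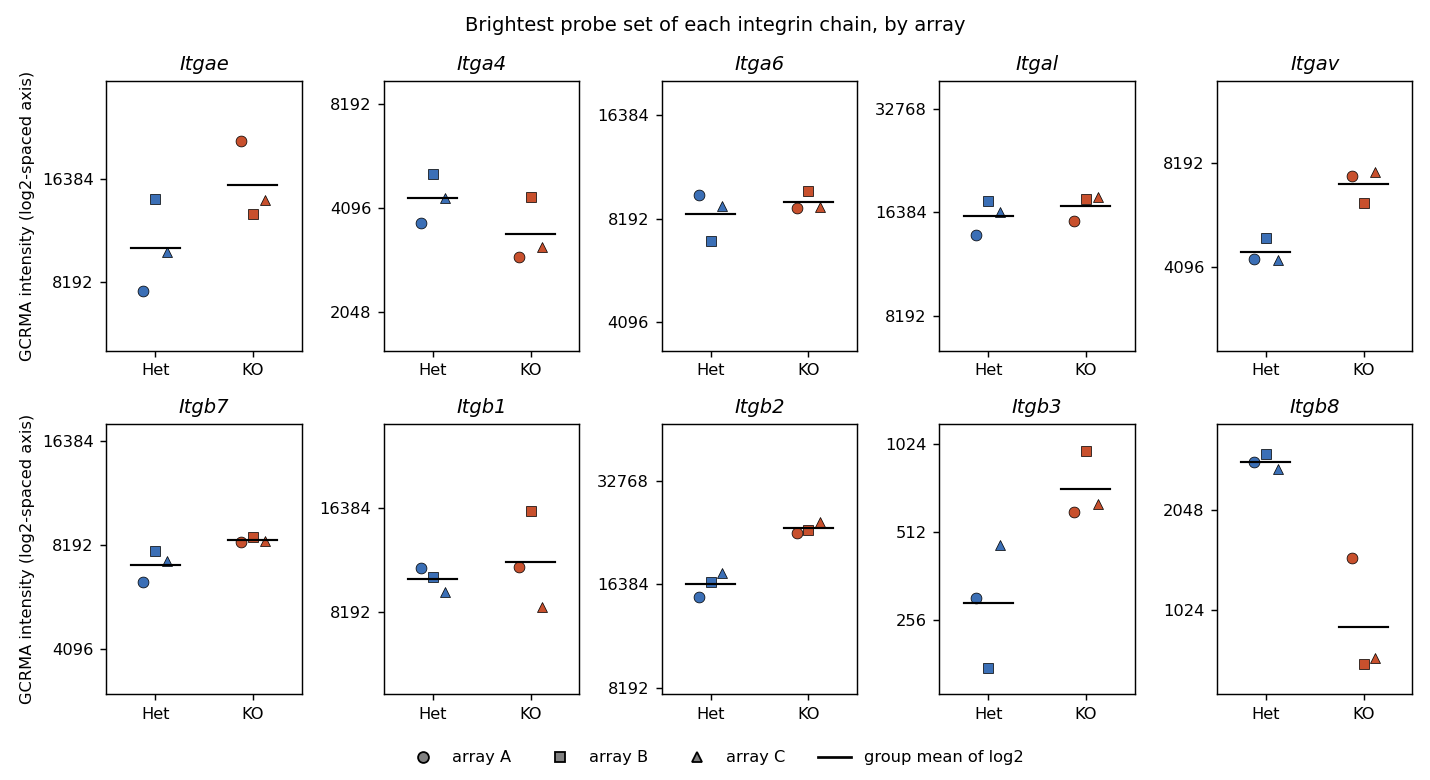
GCRMA intensity (linear units on a log2-spaced axis) of the brightest probe set of each chain on the 3 Het and 3 KO arrays; a point is 1 array, its shape gives the letter A, B or C, and the line is the group mean of log2 values. The KO points of Itgb8 lie below all Het points, those of Itgav, Itgb2, Itgb3 and Itgb7 lie above them, and the other 5 chains overlap.

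Itgav, Itgb8 and Itgb3 gave the largest contrasts among the receptors that bind RGD-containing ligands and latent TGF-beta. The beta chain Itgb8, measured by 1436223_at alone, read 2845, 2990 and 2702 on Het arrays A, B and C and 1464, 709.8 and 738.7 on KO arrays A, B and C. All 3 KO arrays were below all 3 Het arrays, with KO A the highest of the KO arrays. The means were 2846 ± 144 in Het and 971 ± 427 in KO (SD, n = 3 each), 3.11-fold lower in KO, a log2 difference of -1.63 ± 0.29 (SE; 95% confidence interval -2.36 to -0.91; limma adjusted p = 0.0607), which missed the threshold over the whole table. Folds here and below are taken from mean log2 values, so they differ somewhat from the ratio of the mean intensities. The difference within array letters was -0.96 for A, -2.07 for B and -1.87 for C, and it was -1.41 without both B arrays (adjusted p = 0.224).

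Itgav, the alpha chain that joins it, differed the other way. Its brightest probe set, 1452784_at, read 4302, 4955 and 4292 in Het, against 7495, 6280 and 7710 in KO. The groups did not overlap, and KO B was the lowest of the KO arrays while Het B was the highest of the Het arrays. Mean intensity was 4516 ± 379.9 in Het and 7162 ± 771 in KO (SD, n = 3 each), 1.58-fold higher in KO (log2 difference 0.66 ± 0.12 SE, interval 0.37 to 0.95, limma adjusted p = 0.0597). Without both B arrays the difference was 0.82 (adjusted p = 0.146). The summed B cell and myeloid markers were also higher in KO on these arrays, and their part in the Itgav signal was not tested. The dimmer probe set 1421198_at read 48.44, 90.45 and 72.25 in Het, against 141.1, 95.46 and 172.4 in KO. It too was higher on every KO array, by 0.96 ± 0.31, at an adjusted p of 0.186, and by 1.4 without both B arrays. The remaining Itgav probe sets did not share this pattern. 1432296_a_at read 128.5, 142.6 and 114.4 in Het against 122.5, 92.86 and 123.5 in KO, a difference of -0.19 ± 0.15 (adjusted p = 0.558), and 1432679_at lay between 21.16 and 36.26 on all 6 arrays, with a difference of 0.26 ± 0.18 (adjusted p = 0.489). The fifth, 1432678_at, read 12.58, 12.33 and 12.15 in Het against 12, 11.56 and 11.35 in KO. It was lower on every KO array, but too dim to be tested.

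The RefSeq promoter table held 5 of the 10 chains, Itga4, Itgav, Itgb1, Itgb7 and Itgb8, and not Itgae, Itga6, Itgal, Itgb2 or Itgb3. The 250 bases upstream of the annotated start are shown for Itgav and Itgb8, the partner chains whose differences had opposite signs. They are from GRCm38.p6, the plus strand of chr2:83724147-83724396 for Itgav and the minus strand of chr12:119238277-119238526 for Itgb8, each written 5′ to 3′ in the direction of the gene, with a CCAAT box in capitals.
Itgav: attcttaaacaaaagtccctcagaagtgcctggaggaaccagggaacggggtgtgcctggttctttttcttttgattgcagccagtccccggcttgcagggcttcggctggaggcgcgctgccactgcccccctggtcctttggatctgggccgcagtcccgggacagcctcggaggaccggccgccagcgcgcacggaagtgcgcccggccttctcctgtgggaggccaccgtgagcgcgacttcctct
Itgb8: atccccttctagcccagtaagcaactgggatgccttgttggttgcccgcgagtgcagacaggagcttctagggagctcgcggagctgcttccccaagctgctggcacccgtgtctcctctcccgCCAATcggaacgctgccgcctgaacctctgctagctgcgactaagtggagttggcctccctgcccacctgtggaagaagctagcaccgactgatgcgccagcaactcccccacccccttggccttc
Both windows were rich in G and C, 64.4% for Itgav and 62.4% for Itgb8, against a median of 52.4% over 32851 windows of the same length. Both strands were searched for GGGCGG (a GC box), TGTGGT (the RUNX core), TGANTCA (AP-1), TGACG (part of a CRE) and CCAAT, none of which overlapped another in these windows. Itgav held none of them, and Itgb8 held 1 CCAAT, which 33.8% of all windows hold. Of the other chains in the table, Itga4 held 1 GGGCGG and 1 TGTGGT (32.7% and 14.0% of all windows), Itgb1 held 1 GGGCGG and 1 TGACG (17.8% of all windows), and Itgb7 held none. TGANTCA, which 6.75% of all windows hold, was found in none of the 5. A match is a description of the letters only.

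Itgb3, the beta chain that with Itgav makes the vitronectin receptor and on platelets pairs with Itga2b, read 303.8, 176 and 463.5 in Het, against 601.5, 972.2 and 636.4 in KO (probe set 1455257_at). All 3 KO arrays were above all Het arrays, and the B arrays were the lowest Het and the highest KO value. The difference was 1.30 ± 0.39 (2.47-fold; interval 0.33 to 2.27; limma adjusted p = 0.162), and 0.72 without both B arrays (adjusted p = 0.278), so that the B arrays moved it by more than 1.5 times. The B arrays were also those with the highest sums of B, CD8, NK and myeloid markers, and the part of those cells in the Itgb3 signal was not tested. The 5 platelet markers, each of which was below the array median on every array, summed to 113 to 117 in Het and 103 to 115 in KO. The second Itgb3 probe set, 1421511_at, lay between 19.74 and 20.91 on all 6 arrays, with a difference of 0.02 ± 0.07 (adjusted p = 0.882).

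**Figure D2:**
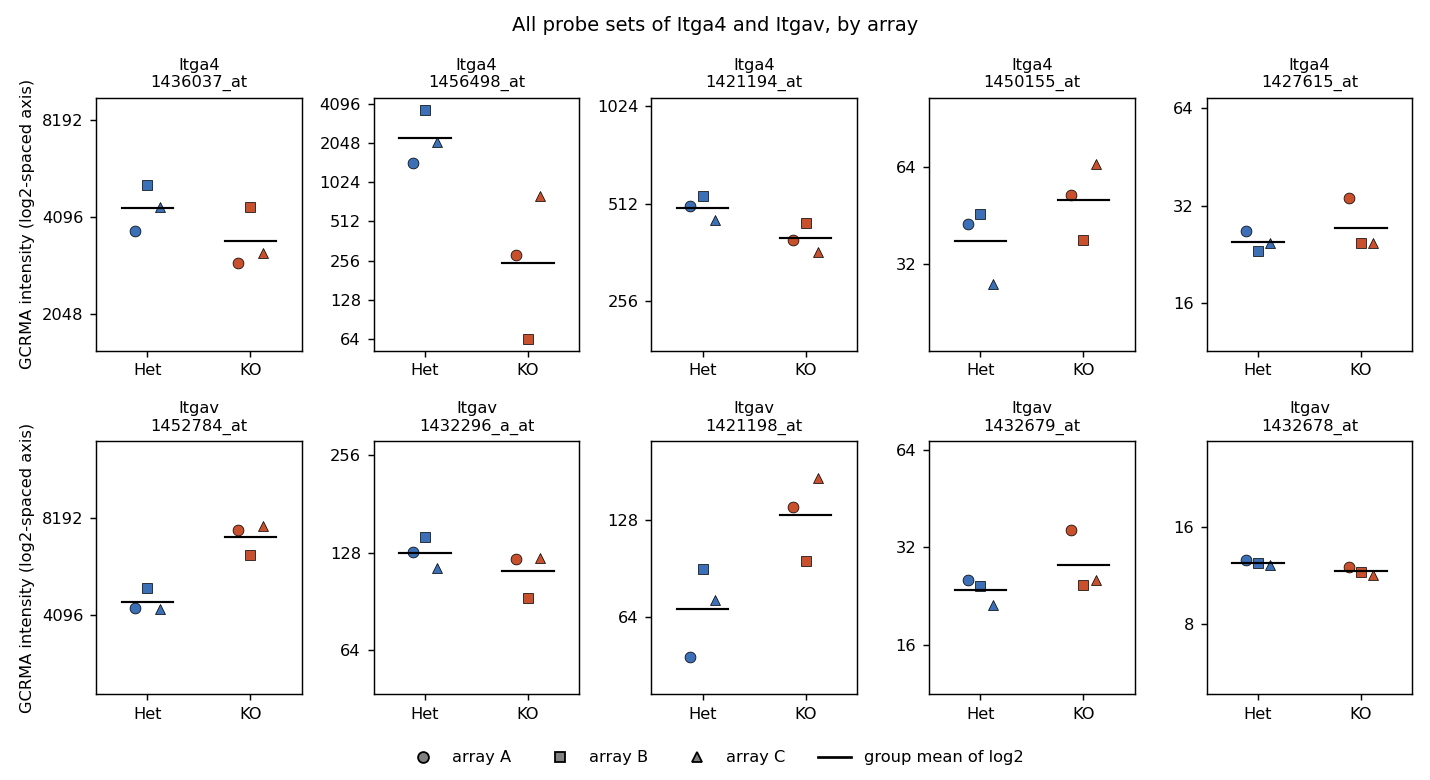
GCRMA intensity (linear units on a log2-spaced axis) on each array for the 5 probe sets of Itga4 (top) and the 5 of Itgav (bottom), with the group mean of log2 values as a line. Of Itga4, 1456498_at and 1421194_at lie lower on every KO array while 1436037_at, 1450155_at and 1427615_at overlap. Of Itgav, 1452784_at and 1421198_at lie higher on every KO array while 1432296_a_at and 1432679_at overlap. The untested dim Itgav probe set 1432678_at lies slightly lower on every KO array.

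The chains of LFA-1 were read by 3 probe sets. Itgb2, the beta chain that all leukocyte integrins of the CD18 family share, was at 15097, 16614 and 17686 in Het, against 23107, 23601 and 24940 in KO (probe set 1450678_at). The KO arrays lay close together and above all Het arrays. Means were 16466 ± 1301 and 23883 ± 948 (SD, n = 3 each), 1.45-fold higher in KO, with a log2 difference of 0.54 ± 0.09 (SE; interval 0.31 to 0.76; limma adjusted p = 0.0555). The 3 differences within letters were 0.61, 0.51 and 0.50, and the difference was 0.55 without both B arrays (adjusted p = 0.193). As Itgb2 is also a chain of B cells and myeloid cells, the higher marker sums of these cells in KO stand beside it, and their part was not tested. Its alpha chain Itgal read 14116, 17700 and 16414 in Het, against 15491, 17873 and 18123 in KO (the bright 1435560_at). These overlapped, with a difference of 0.10 ± 0.12 (interval -0.20 to 0.40, adjusted p = 0.719). The dimmer Itgal probe set 1425367_at read 642.4, 706.8 and 874 against 934.1, 920.8 and 1251. Here all KO arrays were above all Het arrays, by 0.48 ± 0.18 (interval 0.04 to 0.92), at an adjusted p of 0.226. Without both B arrays the Itgal differences were 0.14 and 0.53.

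The chains of the gut and epithelial receptors were read by 8 probe sets, 2 of Itgae, 5 of Itga4 and 1 of Itgb7. Itgae, the CD103 alpha chain that is common on regulatory T cells, read 7729, 14275 and 10009 in Het, against 21142, 12903 and 14200 in KO (probe set 1447541_s_at). KO A was the highest array and Het A the lowest, and KO B lay below Het B. The difference was 0.60 ± 0.29 (interval -0.12 to 1.32, adjusted p = 0.336). The other Itgae probe set, 1449216_at, read 3037, 4956 and 3618 against 8587, 5349 and 5370, with the same order of arrays within each group. The groups did not overlap, and the difference was 0.73 ± 0.27 (1.65-fold, interval 0.07 to 1.38, limma adjusted p = 0.225). Within letters this difference was 1.5 for A, 0.11 for B and 0.57 for C. Without both B arrays the Itgae differences were 0.98 and 1.03 (adjusted p = 0.229 and 0.228). The A arrays worked the other way, as leaving out Het A or KO A gave 0.39 in each case for 1447541_s_at, more than 1.5 times smaller, and 0.57 or 0.50 for 1449216_at.

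Itgb7, the beta chain of both mucosal receptors, read 6418, 7880 and 7350 in Het, against 8367, 8675 and 8444 in KO (its only probe set, 1418741_at). All KO arrays were above all Het arrays, but by only 0.24 ± 0.10 (1.18-fold, interval -0.01 to 0.49, limma adjusted p = 0.271), and by 0.29 without both B arrays.

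Itga4, the alpha chain of VLA-4 and of the MAdCAM-1 receptor, gave different results in its 5 probe sets. The brightest, 1436037_at, read 3701, 5124 and 4383 in Het, against 2944, 4395 and 3164 in KO. The groups overlapped, with KO B just above Het C, and each KO array lay below the Het array of its letter, with a difference of -0.34 ± 0.20 (interval -0.83 to 0.15, adjusted p = 0.424) that was -0.40 without both B arrays. 1456498_at read 1439, 3703 and 2088 in Het, against 282.7, 63.77 and 795.6 in KO. Every KO array was below every Het array, and the spread was wide in KO, where B was the lowest array, while in Het B was the highest. The difference of -3.20 ± 0.95 was the largest in size of all 25 tested (9.19-fold; interval -5.55 to -0.85), at a limma adjusted p of 0.158. It was -1.87 without both B arrays (adjusted p = 0.262), more than 1.5 times smaller, and ran from -4.06 to -2.23 when 1 array was left out at a time. 1421194_at read 503.9, 539.4 and 454.2 against 396, 447.4 and 362.1. These groups did not overlap either, but the difference was smaller, -0.31 ± 0.12 (adjusted p = 0.228), and -0.34 without both B arrays. The dim probe sets were 1450155_at, which lay between 27.68 and 65.07 with a difference of 0.42 ± 0.28 (adjusted p = 0.475), and 1427615_at, which lay between 23.19 and 33.83 with a difference of 0.14 ± 0.15 (adjusted p = 0.687). The 3 brighter probe sets of Itga4 were thus all lower in KO in their means, 2 of them without overlap, and the 2 dim ones higher. Where on the Itga4 transcript each probe set lies was not analysed here.

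Itga6 and Itgb1, which together bind laminin, overlapped between the groups in every probe set tested. Itga6 read 9628, 7065 and 8903 in Het, against 8789, 9872 and 8888 in KO (probe set 1422445_at). Het B was the lowest and KO B the highest, and the difference was 0.12 ± 0.14 (interval -0.23 to 0.46, adjusted p = 0.703). The second, 1422444_at, read 3160, 2283 and 3487 against 5484, 3223 and 2602. Only KO A stood above the Het arrays, and the difference was 0.29 ± 0.32 (interval -0.49 to 1.07, adjusted p = 0.678). Itgb1, the beta chain shared by most matrix receptors, read 10962, 10303 and 9329 in Het, against 11047, 16089 and 8431 in KO (probe set 1426918_at). KO B was the highest array and KO C the lowest, with a difference of 0.17 ± 0.24 (interval -0.43 to 0.77, adjusted p = 0.758) that was -0.07 without both B arrays. For the Itgb1 probe set 1452545_a_at the values were 5524, 5916 and 4170 against 6438, 7924 and 5001. Each KO array was above the Het array of its letter but the groups overlapped, and the difference was 0.30 ± 0.22 (adjusted p = 0.517). For 1427771_x_at they were 1359, 1197 and 1274 against 1363, 1794 and 1160, a difference of 0.15 ± 0.17 (adjusted p = 0.694). Here too KO B was the highest array. The 2 tested dim ones, 1426919_at and 1426920_x_at, had differences of 0.20 and -0.05 (adjusted p = 0.607 and 0.863), and 1438119_at, between 3.90 and 4.82, was not tested.

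**Figure D3:**
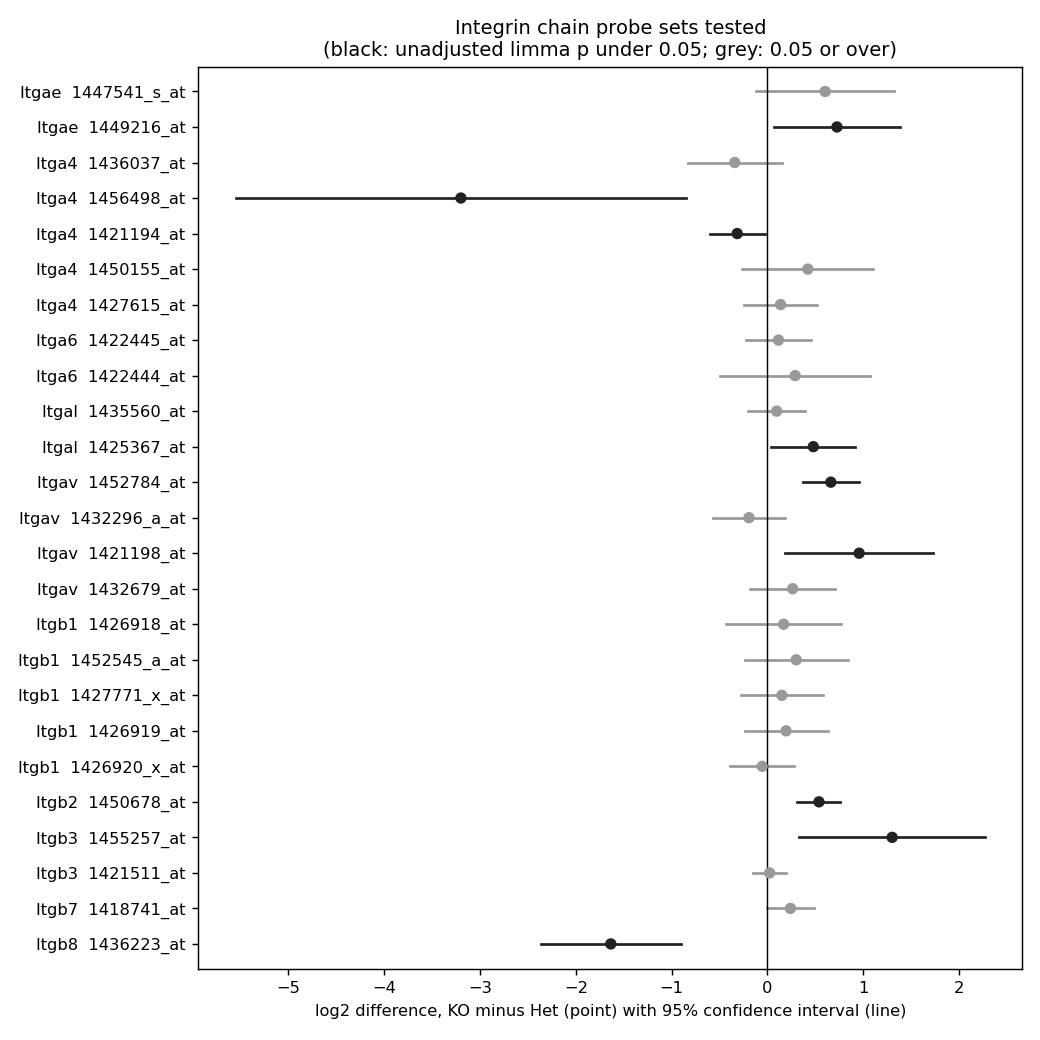
Log2 difference, KO minus Het, of each of the 25 tested probe sets (point) with its 95% confidence interval from limma (line); black marks an unadjusted p under 0.05. The 9 black points are 6 above 0 and 3 below, and the interval of Itga4 1456498_at, from -5.55 to -0.85, is the widest.

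Because a receptor needs both chains, the alpha minus beta log2 value was compared within each array for 8 partner pairs, using the brightest probe set of each gene. The difference between intensities of separate probe sets has no meaning as a level, but its shift between groups compares the 2 chains' changes. For Itgav and Itgb8 the shift was 2.30, from 0.66 for Itgav and -1.63 for Itgb8, and all KO arrays were above all Het arrays. Itga4 against Itgb7 shifted by -0.58 and Itgal against Itgb2 by -0.44, both with all KO arrays below all Het arrays. For these 3 pairs the exact two-sided permutation p was 0.1, the smallest that 3 arrays against 3 can give, and 0.267 after Benjamini-Hochberg adjustment over the 8 pairs. With means of a gene's probe sets their shifts were 2.06, -0.90 and -0.25, again without overlap. The shifts of Itga4 against Itgb7 and of Itgal against Itgb2 thus depended on the probe set. For Itga4, 1456498_at differed by -3.20, 1436037_at by -0.34, 1421194_at by -0.31, 1450155_at by 0.42 and 1427615_at by 0.14, against 0.24 for Itgb7. The dimmer Itgal 1425367_at differed by 0.48 and the bright 1435560_at by 0.10, against 0.54 for Itgb2. In the other 5 pairs the groups overlapped. The shift was 0.36 for Itgae against Itgb7 (exact p = 0.3), -0.51 for Itga4 against Itgb1 (exact p = 0.2) and -0.05 for Itga6 against Itgb1 (exact p = 0.9). It was 0.49 for Itgav against Itgb1 and -0.64 for Itgav against Itgb3 (exact p = 0.4 each).

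**Figure D4:**
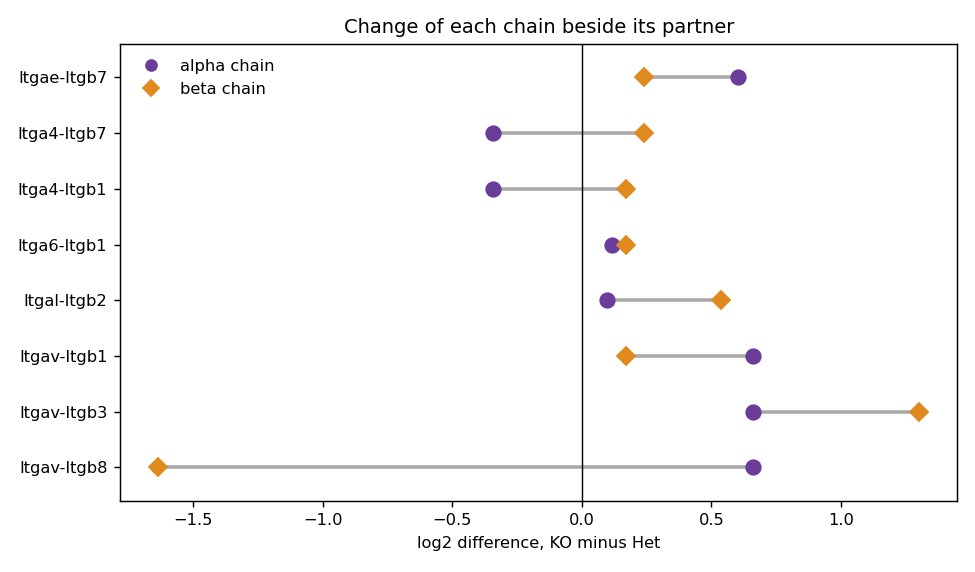
Log2 difference, KO minus Het, of the alpha chain (circle) and the beta chain (diamond) of each of the 8 partner pairs, from the brightest probe set of each gene; the grey line joins partners, and errors are in the plot of all 25 probe sets. The longest line is that of Itgav and Itgb8, from 0.66 to -1.63.

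The 3 chains closest to the threshold depended on the setting of the test. With array weights, which let limma count noisier arrays less, Itgav, Itgb2 and Itgb8 all passed, with adjusted p of 0.0357, 0.0432 and 0.0477. In that setting 957 of all 29507 probe sets passed, against 525 in the main fit. Itgb8 also passed with the stricter filter of log2 above 6 (adjusted p = 0.0477) and without KO array A (adjusted p = 0.0285), and Itgb2 with an intensity trend and robust estimation (adjusted p = 0.0372). Over all probe sets 721 of 22400 passed with the stricter filter, 176 of 29507 without KO array A and 553 of 29507 with trend and robust estimation. In another setting, chosen after seeing the data, the log2 values of all tested probe sets of a gene were averaged. Itgb2 and Itgb8, each with 1 probe set, then passed with limma adjusted p of 0.0356 and 0.0429, and Itgav did not (0.184). Of all 13280 genes 504 passed in that setting. The direction of each of the 3 was the same in all 14 settings tried on the arrays.

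**Figure D5:**
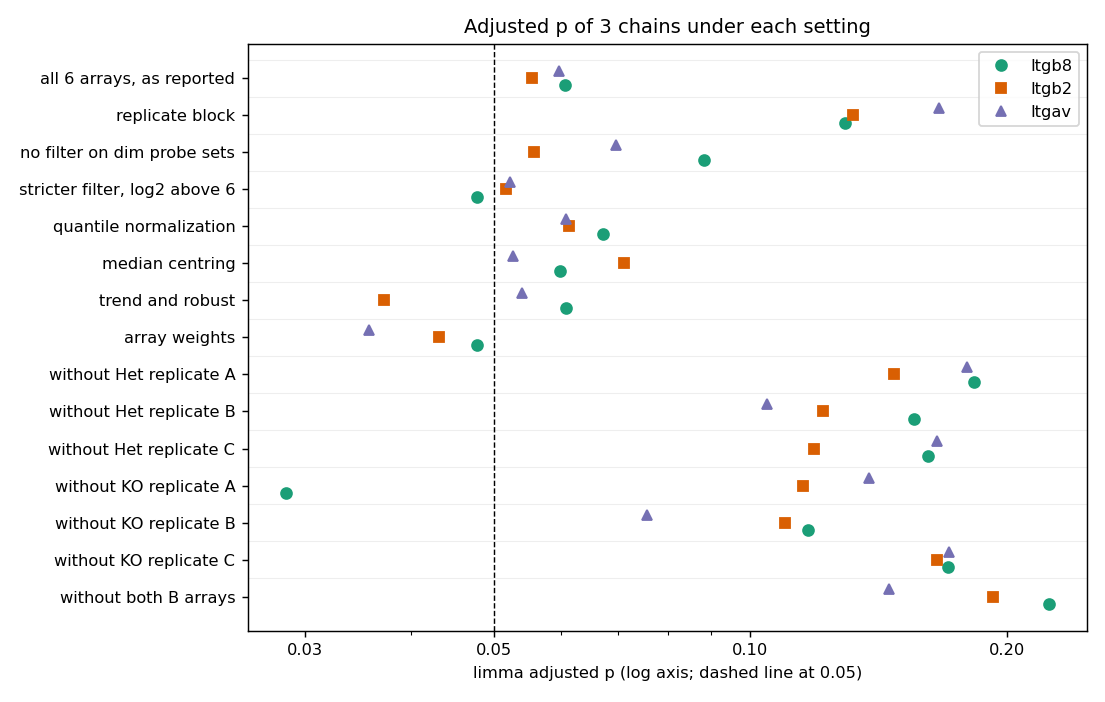
Limma adjusted p (log axis) of Itgb8 (circle), Itgb2 (square) and Itgav 1452784_at (triangle) with all 6 arrays as reported and under each of the 14 other settings; the dashed line marks 0.05. With all arrays the 3 values are 0.0607, 0.0555 and 0.0597; only array weights bring all of them under 0.05, and without both B arrays they are 0.224, 0.193 and 0.146.

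The genes whose log2 values went most closely with the 2 largest differences were sought among 3329 candidate probe sets. Each of these had 1 gene symbol and an SD of at least 0.5 over the 6 arrays. A gene was counted once, by its probe set with the highest r. For Itga4 1456498_at the closest genes were Rgs2 (Pearson r = 0.986), a regulator of G protein signals, Ramp1 (0.981), a partner of the CGRP receptor, and Rtl8c (0.979). In all, 9 genes had r over 0.95. Rgs2 read 644.7, 827.7 and 683.9 in Het, against 221.2, 100.5 and 524.6 in KO, so that it too was lowest on KO B. For Itgb8 the closest genes were Trav6-3 (0.998), a T cell receptor alpha variable segment, Ank (0.993), a pyrophosphate transporter, and Sntb1 (0.982), a syntrophin, among 21 genes with r over 0.95. Trav6-3 read 390.6, 389.2 and 345.2 against 218.9, 101.8 and 110.2, with KO A the highest of the KO arrays as for Itgb8. These correlations run over 6 arrays in 2 groups and describe likeness only.

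Other genes of the integrin system were read from 4 lists with 1 probe set for each gene. Of 16 further integrin chains 14 were on the array and 7 were bright enough to test, with 0 of the 7 passing in limma and 0 at an unadjusted p under 0.05; their median difference was 0.03, against -0.03 over all genes. Those with the smallest p were Itga5, the fibronectin receptor chain, at -0.33 (adjusted p = 0.285) and Itgb5, another partner of Itgav, at 0.37 (adjusted p = 0.459). Of 29 activators and adaptors 25 were tested, and 1 (4%) was higher and 0 lower in limma, with a median of 0.06. Over all genes 1.37% were higher and 0.956% lower. At an unadjusted limma p under 0.05, 2 of the 25 were higher and 2 lower, where 10.7% of all genes were higher and 11.6% lower. The 1 that passed the adjusted threshold was Pxn, paxillin, an adaptor at the cytoplasmic tails of integrins. Its brightest probe set, 1456135_s_at, is of the kind that can also pick up similar sequences. It read 2854, 2825 and 2904 in Het, against 3822, 4296 and 4111 in KO. It was higher on every KO array, by 0.51 ± 0.08 (adjusted p = 0.0479), but its adjusted p was 0.0818 to 0.149, whichever single array was left out, 0.0653 after centring each array on its median, and 0.179 without both B arrays (difference 0.46). Of its further probe sets, 1424027_at differed by 0.45 (adjusted p = 0.300) and 1426085_a_at by 0.12 (adjusted p = 0.953), both with groups that overlapped. As the mean of its tested probe sets Pxn did not pass either (0.36, adjusted p = 0.421). Cd47, which binds integrins sideways in the membrane, did not pass in its brightest probe set (0.44, adjusted p = 0.101). Another Cd47 probe set, 1449507_a_at, at 6441, 7184 and 7269 in Het against 10370, 10884 and 12291 in KO, did pass (0.68, adjusted p = 0.0443), and was singled out after its values were seen. As a mean of probe sets Cd47 passed (0.60, adjusted p = 0.0188), so that the list's count of 1 was reached by another gene.

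Of 16 ligands and partners of latent TGF-beta 9 were tested. In limma 1 of the 9 (11.1%), Icam1, was higher and 0 lower, against 1.37% and 0.956% of all genes, and the median was 0.14. At an unadjusted limma p under 0.05, 2 of the 9 were higher and 1 lower, where 10.7% of all genes were higher and 11.6% lower. Icam1, a ligand of the Itgal-Itgb2 receptor, was at 2433, 2369 and 2314 in Het, against 4127, 4123 and 3894 in KO. It rose by 0.77 ± 0.07 (adjusted p = 0.0222), with a gap between groups wider than the spread within them; the adjusted p was 0.058 to 0.0954, whichever single array was left out, and 0.146 without both B arrays. B cells and myeloid cells also make Icam1, and the part of their higher marker sums in KO was not tested. Of 13 other adhesion receptors of T cells 12 were tested and none passed in limma, their median was -0.04, and an unadjusted p under 0.05 was reached by 5, 3 of them higher and 2 lower, of 12 (10.7% and 11.6% of all genes). As means of probe sets 1 of the 12 passed, Slamf6, another SLAM family receptor, at 0.90 (limma adjusted p = 0.0338). None of its single probe sets passed. The brightest, 1420659_at, overlapped between the groups (0.46, limma adjusted p = 0.480). The others were 1425086_a_at (0.68, limma adjusted p = 0.0758) and 1457773_at (1.56, limma adjusted p = 0.119). With 1 probe set for each gene, the smallest p were those of Cd2 and Ly9. Cd2, which binds CD48, differed by 0.32 (limma adjusted p = 0.112). Ly9, a SLAM family receptor, differed by -0.34 (limma adjusted p = 0.133).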

How the data were processed

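Probe set intensities of 6 Affymetrix arrays were used as the authors deposited them. Per the labels they are GCRMA-normalized, a method that models background from the sequence of each probe, scales the arrays to each other and joins probes into 1 value; the labels give no version. Subtracting background pushes dim probe sets toward a floor. Per the labels' protocols, TRIzol was used for extraction and the MessageAmp II kit for amplification. Values from 1.23 to 170023 show a linear intensity scale, so log2 was taken. Controls (64) and 1 incomplete probe set were dropped from the 45101, and the 29507 above log2 4 on at least 3 arrays were tested two-sided for KO against Het with lmFit and eBayes of limma 3.58.1 (R 4.3.3). Adjustment was by Benjamini-Hochberg over all of them, with a threshold of 0.05. Symbols came from the platform annotation: 34958 probe sets had 1 symbol and 932 several. The number of arrays, 3 in each group, limits the precision. The script was tested on simulated data.

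The chains and the lists were chosen with earlier results of these data known. Named are all 10 chains, Dicer1, Foxp3 and Cd4, from each list up to 4 genes past the threshold or else the 2 with the smallest p, and the 3 genes most like each of the 2 largest differences. Cd47 and Slamf6 were named outside this rule, after their results had been seen, and some single cell type markers were named too. The brightest probe set stood for a gene in lists and pairs. Cd4, a T cell marker, differed by 0.12 (adjusted p = 0.692). Dendritic cell markers summed to 893 to 1343 on Het and 834 to 1433 on KO arrays, and endothelial and stromal ones to 79.0 to 92.3 and 78.2 to 84.6. Alternatives were a replicate block, no filter and a stricter filter on dim probe sets, array weights, robust eBayes with a trend, centring on medians, quantile scaling, dropping single arrays or both B arrays, and averaging the probe sets of each gene.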

Additional observations from a re-analysis of the deposited data

How the results depend on the processing

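Over all probe sets 525 passed with the 6 arrays as reported, 957 with array weights, 553 with trend and robust estimation, and 721 of 22400 with the stricter filter. As means of a gene's probe sets 504 of 13280 genes passed. The count of probe sets was 0 to 176 when 1 array was left out and 0 without both B arrays (5274 at an unadjusted limma p under 0.05). Leaving out both B arrays was a setting chosen after seeing the data. With the letter as a replicate block 0 passed (5365 at an unadjusted limma p under 0.05). The labels do not say whether arrays of 1 letter share more than the letter. Deviations from the group means correlated at 0.28 for A, -0.17 for B and 0.01 for C, and at -0.45 to 0.37 for arrays of different letters. With 3 arrays in a group these correlations cannot tell whether the letter marks a shared batch. Of the integrin chains none passed as reported; 1 passed with the stricter filter, 1 with trend and robust estimation, 3 with array weights, 0 to 1 with 1 array left out, and 2 as means of a gene's probe sets. In the latter setting 1 gene of the other adhesion receptors passed, where none did as reported. Under the replicate block 0 integrin chains passed, and the adjusted p was 0.141 for Pxn and 0.0956 for Icam1.

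Of 344 values of single probe sets under the alternatives 12 reversed, all from differences that had not passed. Leaving out 1 array gave -0.018 to 0.22 for Itga4 1427615_at, -0.017 to 0.52 for Itga6 1422444_at, -0.014 to 0.21 for Itga6 1422445_at, -0.076 to 0.39 for Itgb1 1426918_at, -0.16 to 0.054 for Itgb1 1426920_x_at and -0.020 to 0.29 for Itgb1 1427771_x_at. Without both B arrays the difference was -0.067 for Itga6 1422445_at, 0.021 for Itgav 1432296_a_at, -0.067 for Itgb1 1426918_at, -0.023 for Itgb1 1426919_at and -0.066 for Itgb1 1427771_x_at. With means of a gene's probe sets Itga6 against Itgb1 shifted by 0.051. The cause was not tested. The dim probe sets lie near the background floor, where small differences in intensity cannot be resolved. Reversals were not confined to dim probe sets. Itga6 1422445_at and 1422444_at, Itgb1 1426918_at and 1427771_x_at, and Itgav 1432296_a_at lay above the array median on all 6 arrays.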
